A study of Rattus norvegicus with 40 samples.

Results

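The tripartite motif (TRIM) genes encode a family of proteins built from a RING finger, B-box zinc fingers and a coiled coil, followed by a C-terminal end that differs between subgroups. The members described here are the 48 genes whose platform symbol is Trim followed by a number, out of 16587 gene symbols measured, and each was read by a single probe set. The platform symbol Trim47l was updated to Trim80. The cells were INS-1E (labelled INS1), an insulin-making line grown from a rat insulinoma. Control cells (15 arrays) received no cytokine, and the treated cells (25 arrays) received human IL-1 (10 units/ml) together with murine IFN-γ (100 units/ml), both recombinant. Both were collected at 13 times from 0 to 72 h. Control cells had 2 arrays at 0 and 1 h and a lone array at 11 times, and cytokine cells had 2 arrays at each time except 10 h, which had 1. One tag of the cytokine samples lists IFN-beta in place of IL-1, whereas the series' titles and protocol give IL-1 with IFN-γ, and the extraction text mentions islets although each sample is labelled as the line.

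Most TRIM proteins are E3 ubiquitin ligases: the RING finger brings an E2 enzyme loaded with ubiquitin to a substrate held by the C-terminal end. In many of them that end is a PRY-SPRY domain, a surface that binds viral or immune proteins. Several members are induced by interferons and act in antiviral defence, in the signalling of RNA sensors or as brakes on it. Others work in chromatin, muscle, neurons or the cytoskeleton and are not known as interferon genes.

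Array medians lay between 6.54 and 6.62 on the log2 scale and 0 arrays were identical to another. The precision is limited by the number of arrays, and since nothing states that replicates were separate cultures, p-values cover the spread between these arrays. Of 10 listed beta cell markers 8 were measured, with a mean log2 signal between 11.45 and 11.80 in control arrays and between 11.21 and 11.68 in cytokine arrays. Of these, 0 were called early and 3 were lower at 6 to 12 h (Nkx6-1, Slc2a2 and Slc30a8). Late, 5 were lower (Ins1, Ins2, Iapp, Nkx6-1 and Slc30a8). Over all genes 4.11% were lower at 6 to 12 h and 4.22% late. The part of this marker shift in the TRIM values was not tested. Of 10 leukocyte markers 8 were measured, with means between 4.56 and 4.92 in control and between 4.59 and 4.87 in cytokine arrays, and limma called 0 of them in each window. Of 10 markers of endothelial, stromal, acinar and duct cells 9 were measured, at 5.27 to 5.75 and 5.29 to 5.61, and 0 were called. The table has no detection call and no true zero, so absence of a transcript cannot be read from it. In bulk RNA, fewer cells of a kind and less RNA per cell cannot be told apart.

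Promoters of members that rose with cytokines are shown because the treatment acts through factors that bind known DNA motifs. Each is RefSeq sequence of build GRCr8 from 250 bases before to 50 bases after the annotated start, 5′ to 3′ on the gene's strand, and capitals mark matches, on either strand, to an interferon-response motif (GAAA, any 2 bases, GAAA, bound by IRF and ISGF3 factors) or an NF-kB motif (GGG, any 2 bases, TT, any base, CC). The windows are chr1:166399322-166399621 (- strand), chr20:1736262-1736561 (- strand), chr1:168149214-168149513 (- strand) and chr10:74309774-74310073 (+ strand).
Trim21: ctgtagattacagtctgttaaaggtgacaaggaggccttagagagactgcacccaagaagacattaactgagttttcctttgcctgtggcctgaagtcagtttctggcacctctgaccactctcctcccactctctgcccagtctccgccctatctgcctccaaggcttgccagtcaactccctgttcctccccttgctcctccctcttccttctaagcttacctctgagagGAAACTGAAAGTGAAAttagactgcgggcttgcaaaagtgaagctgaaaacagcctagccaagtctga
Trim26: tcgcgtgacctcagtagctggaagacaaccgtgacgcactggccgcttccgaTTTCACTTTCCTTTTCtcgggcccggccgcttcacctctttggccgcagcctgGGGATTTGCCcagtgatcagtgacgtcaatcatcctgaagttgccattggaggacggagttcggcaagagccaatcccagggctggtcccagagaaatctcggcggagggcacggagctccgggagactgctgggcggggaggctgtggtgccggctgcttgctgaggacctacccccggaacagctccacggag
Trim5: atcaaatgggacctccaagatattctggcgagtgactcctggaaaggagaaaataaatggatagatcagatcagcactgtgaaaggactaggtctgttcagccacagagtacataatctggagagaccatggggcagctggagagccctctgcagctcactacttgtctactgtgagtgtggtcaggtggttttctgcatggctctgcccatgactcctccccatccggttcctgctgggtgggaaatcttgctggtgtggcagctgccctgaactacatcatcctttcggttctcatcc
Trim25: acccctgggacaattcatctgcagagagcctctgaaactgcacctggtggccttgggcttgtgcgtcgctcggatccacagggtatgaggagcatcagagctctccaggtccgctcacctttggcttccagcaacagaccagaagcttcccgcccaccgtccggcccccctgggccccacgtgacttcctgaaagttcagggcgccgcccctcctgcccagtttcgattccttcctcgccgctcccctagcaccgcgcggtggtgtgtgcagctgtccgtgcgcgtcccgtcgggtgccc
Trim21 held overlapping interferon-response matches on the gene's strand, at -18 to -9 (GAAACTGAAA) and -12 to -3 (GAAAGTGAAA) counted from the start. Trim26 held overlapping interferon-response matches on the other strand, at -198 to -189 and -192 to -183, and an NF-kB match at -145 to -136. The windows of Trim5 and Trim25 held no match to either motif, nor did those of Trim6, Trim36, Trim37, Trim66 and Trim72. Of 39 members with a promoter entry, 3 held the interferon-response motif (Trim21, Trim26 and Trim40), against 3.92% of 33469 promoters. The NF-kB motif was found in 1 member (Trim26) against 5%. A match is a description of the letters and not a binding site.

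At 0 h the cytokine and control arrays (2 against 2) gave the background. The differences of the 48 members ran from -0.21 to 0.35 on the log2 scale, and 0 were called by limma at a Benjamini-Hochberg adjusted p under 0.05, as were 0% of all genes. At an unadjusted p under 0.05 there was 1 member, and the smallest adjusted p was 0.999. Trim21 differed by 0.32 (SE 0.28) and Trim5 by 0.23 (SE 0.25), with the control 0 h replicate 1 array the lowest of the 4 in both genes.

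**Figure D1:**
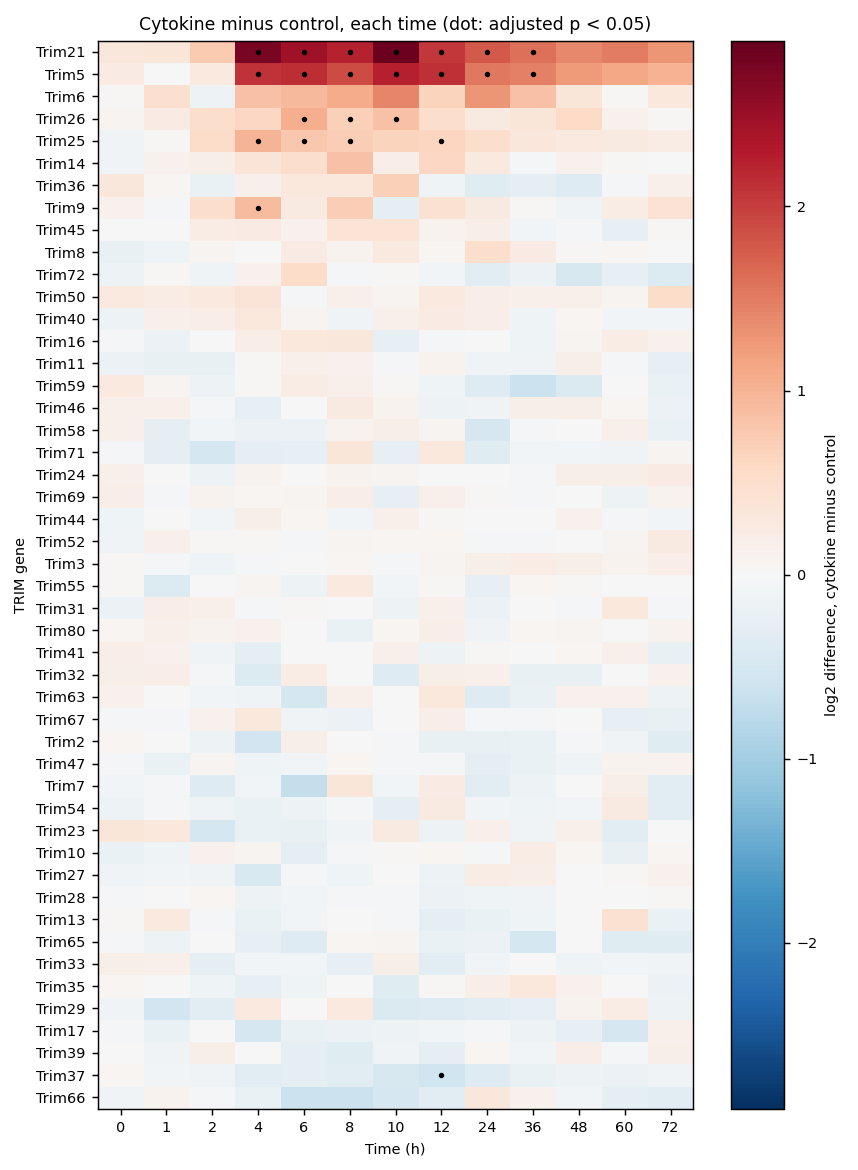
Log2 difference between cytokine and control arrays (colour) for 48 TRIM genes (rows, ordered by the average over 6 to 12 h) at 13 times in hours (columns), with a dot where limma's adjusted p within that time was under 0.05. Dots lie in the rows of Trim21 and Trim5 from 4 to 36 h, in those of Trim25 and Trim26 up to 12 and 10 h, and once each in those of Trim9 (4 h) and Trim37 (12 h).

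In the early window, the equal-weight average of 1, 2 and 4 h, 4 members rose and 0 fell (0.0482% of all genes were called lower). They were Trim21, Trim25, Trim5 and Trim26, each known as antiviral or interferon-inducible. The 4 make up 8.33% of the family, where 1.44% of all genes tested were called higher. Trim21 rose 2.43-fold (log2 1.28, SE 0.19, adjusted p = 0.000249), Trim5 1.74-fold (adjusted p = 0.0111), Trim25 1.44-fold (adjusted p = 0.000392) and Trim26 1.37-fold (adjusted p = 0.0137). The median over the family was -0.02, as it was over all genes (-0.02).

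Time by time, 5 members were called higher (Trim5, Trim9, Trim21, Trim25 and Trim26) and 1 lower (Trim37) at 1 or more of 13 times, as were 3.38% and 1.8% of all genes. The background of higher calls was 1.48% at 4 h, 1.73% at 6 h, 1.71% at 8 h, 1.62% at 10 h, 1.78% at 12 h, 1.63% at 24 h and 0.874% at 36 h, and 0.458% were lower at 12 h. For the genes with the largest changes the early average covers a step between 2 and 4 h. Trim21 encodes the cytosolic antibody receptor (also known as Ro52) that tags antibody-coated virus for the proteasome. Its 15 control arrays lay between 5.84 and 6.80 with a median of 6.51. With cytokines the replicate 1 and 2 arrays read 6.33 and 6.75 at 1 h, 7.42 and 7.31 at 2 h, 9.34 and 9.23 at 4 h, and 9.37 and 8.93 at 6 h. They read 9.03 and 8.80 at 8 h, 9.28 (1 array) at 10 h, and 9.02 and 8.69 at 12 h. From 2 h on, each of these arrays lay above all 15 control arrays. The log2 difference was 0.35 at 1 h, 0.75 at 2 h (adjusted p = 0.684) and 2.75 at 4 h (SE 0.35, adjusted p = 3.78e-05).

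Trim5, the rat member of the group that holds the primate retrovirus restriction factor TRIM5, followed a similar course. Control arrays lay between 7.32 and 8.11 with a median of 7.78. Cytokine arrays read 7.78 and 7.87 at 1 h, 8.02 and 8.05 at 2 h, and 9.68 and 9.90 at 4 h. Up to 2 h they overlapped the controls and from 4 h to 72 h they did not. The log2 difference was 0.29 at 2 h (adjusted p = 0.894) and 2.11 at 4 h (SE 0.31, adjusted p = 0.000239).

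Trim25, a ligase that attaches ubiquitin chains for the RNA sensor RIG-I, had control arrays between 8.82 and 9.05. With cytokines it read 9.10 and 8.96 at 1 h, 9.52 and 9.27 at 2 h, and 9.78 and 9.97 at 4 h, so that its arrays stood above all controls from 2 h. Its difference was largest at 4 h (log2 1.00, adjusted p = 0.000275), against 0.53 at 2 h (adjusted p = 0.196). Trim26, a ligase that acts on TBK1 and IRF3 signalling, had control arrays between 6.74 and 7.28 and read 7.30 and 7.34 at 1 h, 7.75 and 7.51 at 2 h and 7.73 and 7.81 at 4 h. It lay above all controls at each of these times, but the first single time called was 6 h (log2 1.05, adjusted p = 0.00113). Trim9, a mostly neuronal ligase with a COS box, was called at 4 h only, at 0.91 (adjusted p = 0.0252), and in the early window it differed by 0.46 (adjusted p = 0.0518, with 0.0354 under quantile normalization). Its call at 4 h was lost without cytokine 4 h replicate 1 (adjusted p = 0.154).

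The early calls were lost without 4 h, although the average of Trim26 moved least from its value of 0.45 with all arrays. A fit without a time is also less precise. With control 4 h left out, which removes that time, Trim21 stood at 0.55 (adjusted p = 0.53), Trim5 at 0.15 (0.889), Trim25 at 0.29 (0.389) and Trim26 at 0.38 (0.293), and 0 members were called. With replicate 1 arrays only the values were 1.24, 0.77, 0.57 and 0.51, with adjusted p of 0.161, 0.343, 0.051 and 0.0604. That fit held 1 cytokine effect per window, so the step between 2 and 4 h counted as residual spread. The call of Trim26 needed each of control 1 h replicate 1, control 2 h and cytokine 2 h replicate 1 (adjusted p of 0.0523, 0.109 and 0.0555 without them).

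**Figure D2:**
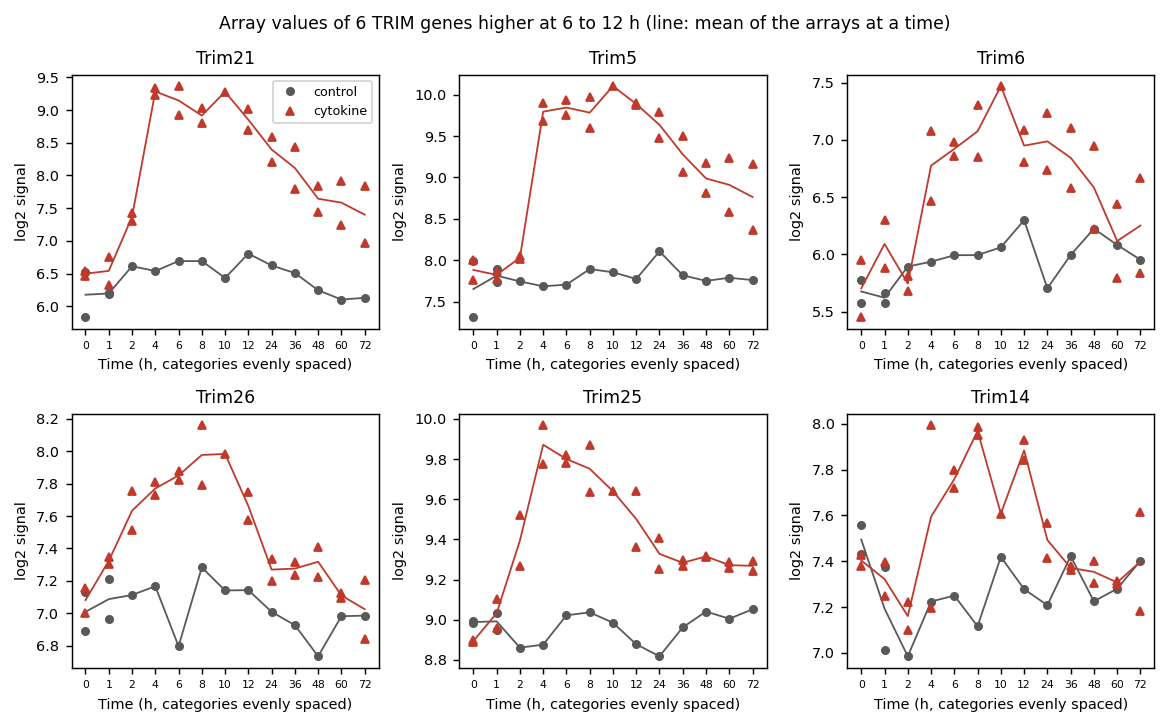
Log2 signal of each array (points) and mean of the arrays at a time (lines) for Trim21, Trim5, Trim6, Trim26, Trim25 and Trim14 against time in hours (evenly spaced categories), control in grey circles and cytokine in red triangles. Trim21 and Trim5 step up between 2 and 4 h and stay above control at 72 h, while Trim26 and Trim14 come back to the control level. The differences of Trim21 and Trim5 at 10 h (2.85 and 2.24) are 1 array against 1 and are little larger than at 4 h (2.75 and 2.11).

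In the intermediate window (6, 8, 10 and 12 h) 7 members rose and 3 fell. The background was 4.94% of genes higher and 4.11% lower, beside 14.6% and 6.25% of the family. The control arrays of Trim21 averaged 6.65 ± 0.16 (SD, n = 4) and its cytokine arrays 9.02 ± 0.24 (SD, n = 7), a 5.26-fold rise (log2 2.39, SE 0.18, adjusted p = 3.9e-09 by limma). Trim5 averaged 7.81 ± 0.08 (SD, n = 4) in control and 9.88 ± 0.16 (SD, n = 7) in cytokine arrays, a 4.27-fold rise (log2 2.09, SE 0.16, adjusted p = 4.9e-09). Trim6, Trim26, Trim25, Trim14 and Trim36 also rose, and Trim66, Trim37 and Trim39 fell.

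Trim6, a ligase known for free ubiquitin chains that activate IKKε, rose 2.03-fold (log2 1.02, SE 0.19, adjusted p = 0.001). Its 4 control arrays in this window lay between 5.99 and 6.30 and its 7 cytokine arrays between 6.81 and 7.47, without overlap, although it was called at no single time. Trim26 went up 1.71-fold (7.09 ± 0.21, SD, n = 4, against 7.85 ± 0.18, SD, n = 7, adjusted p = 4.1e-06). Trim25 went up 1.62-fold (8.98 ± 0.07, SD, n = 4, against 9.68 ± 0.17, SD, n = 7, adjusted p = 1.36e-06). In neither did the groups overlap. Trim14, which lacks a RING finger and joins the mitochondrial adaptor MAVS, rose 1.45-fold (log2 0.54, adjusted p = 0.00384). Its cytokine arrays lay between 7.61 and 7.99, above the 4 controls (7.12 to 7.42), and its call was lost without control 8 h (log2 0.43, adjusted p = 0.0647).

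The members that fell did so by less. Trim66, a chromatin reader with a PHD finger and bromodomain, fell 1.43-fold (log2 -0.51, SE 0.09, adjusted p = 0.000684). Its control arrays lay between 7.16 and 7.51 and its cytokine arrays between 6.48 and 7.01. Trim37, a ligase with a MATH domain found at centrosomes and peroxisomes, fell 1.33-fold (log2 -0.41, SE 0.07, adjusted p = 0.000144), from between 9.37 and 9.64 to between 8.96 and 9.20. The groups did not overlap in either gene. The difference of Trim37 was below 0 at each of the 12 times after 0 h and was called at 12 h (log2 -0.59, adjusted p = 0.0105), a call lost without cytokine 12 h replicate 1 (0.134).

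The remaining calls of this window were small and their groups overlapped. Trim36, a microtubule-linked ligase with a COS box, stood at 0.29 (adjusted p = 0.0405), and Trim39, a regulator of the apoptosis protein MOAP-1, at -0.25 (adjusted p = 0.0414). Trim36 was not called with quantile normalization (adjusted p = 0.0875), trend and robust moderation (0.0548) or replicate 1 arrays only (0.072). It was also lost without control 6, 8 or 10 h, cytokine replicate 1 at 6, 8, 10 or 12 h, or cytokine 12 h replicate 2 (up to 0.422). Trim39 was not called with trend and robust moderation (0.0602), nor without control 6, 8 or 12 h or cytokine replicate 1 at 6, 8 or 12 h (up to 0.203). Trim36 was dim, with only 23.8% of all genes at a lower mean.

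**Figure D3:**
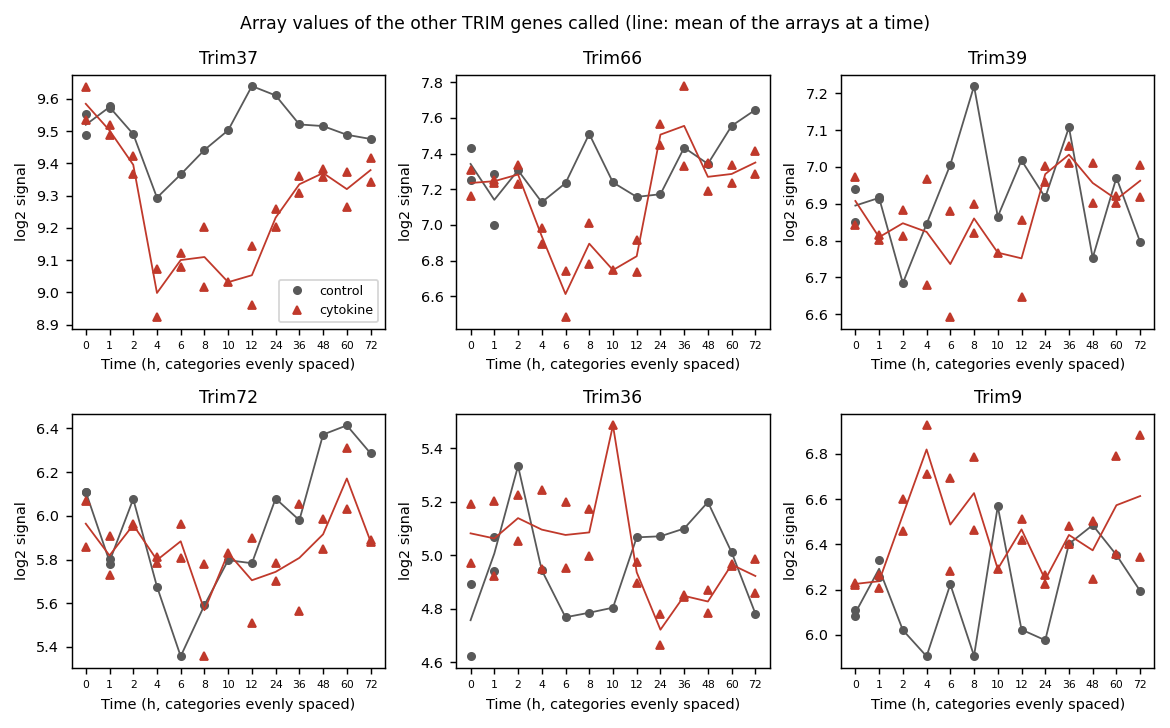
Log2 signal of each array (points) and mean at a time (lines) for Trim37, Trim66, Trim39, Trim72, Trim36 and Trim9 against time in hours (evenly spaced categories), control in grey circles and cytokine in red triangles. Trim37 and Trim66 lie below control from 6 to 12 h, and each panel has its own vertical range.

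The window average of Trim5 grew from early to intermediate and then shrank. The intermediate difference exceeded the early one by 1.29 for Trim5 (SE 0.23, adjusted p = 0.00368) and by 1.11 for Trim21 (SE 0.26, adjusted p = 0.0357). The early average includes 1 and 2 h, before the step. At 4 h alone Trim5 stood at 2.11, within its 1.89 to 2.24 at 6 to 12 h. Trim21 stood at 2.75 at 4 h, within its 2.05 to 2.85 at 6 to 12 h. In the test of intermediate minus early, 2 of the 48 members were called higher and 0 lower, beside 1.07% and 0.163% of all genes. The late difference was smaller than the intermediate one by 0.83 for Trim5 (adjusted p = 0.0416), 0.50 for Trim26 (0.0307) and 0.47 for Trim36 (0.0341). It was larger by 0.48 for Trim66 (0.0426), whose late value averaged -0.04. That average covers 0.334, 0.122, -0.073, -0.269 and -0.295 at 24, 36, 48, 60 and 72 h, none called. In this test of late minus intermediate 3 members were lower and 1 higher, where 1.43% and 0.862% of all genes were called. Trim21 differed by -0.89 (adjusted p = 0.0542) and Trim25 by -0.38 (0.0559), neither past the threshold, though array weights or the filter on dim genes brought both past it. With replicate 1 arrays only, in a fit with 1 cytokine effect per window, 0 members were called in either test. Most of the calls between windows were lost without 1 array. Trim5 against early was lost without control 2 h (0.0751), and Trim21 against early without any of 15 of 21 arrays (up to 0.375). The late calls of Trim5, Trim26, Trim36 and Trim66 were lost without any of 17, 8, 14 and 17 of 26 arrays (up to 0.101, 0.175, 0.229 and 0.148).

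In the late window (24 to 72 h) 5 members rose and 2 fell, where 4.51% of genes were called higher and 4.22% lower. Trim21 was still 2.84-fold higher, at 7.83 ± 0.51 (SD, n = 10) against 6.32 ± 0.23 (SD, n = 5, log2 1.51, SE 0.15, limma adjusted p = 7.55e-07). Trim5 was 2.41-fold higher (log2 1.27, SE 0.14, adjusted p = 1.56e-06). The cytokine and control arrays did not overlap in either gene. Single times were called at 24 and 36 h for both genes and not from 48 h on, where Trim21 stood at 1.40, 1.48 and 1.27 and Trim5 at 1.24, 1.12 and 1.00. The calls at 24 h and at 36 h were each lost without the replicate 1 cytokine array of that time, with adjusted p of 0.0697 and 0.265 for Trim21 and 0.0817 and 0.215 for Trim5.

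Trim25 was 1.25-fold higher late (log2 0.32, adjusted p = 0.00284), with cytokine arrays between 9.24 and 9.40 and controls between 8.82 and 9.05. Trim6 stood at 0.57 (adjusted p = 0.0342) and Trim26 at 0.27 (adjusted p = 0.0364), with overlapping groups. Trim14 differed by 0.08 (adjusted p = 0.733). Trim37 fell 1.14-fold (log2 -0.20, adjusted p = 0.0323), with cytokine arrays between 9.20 and 9.42 and controls between 9.48 and 9.61. Trim72, the membrane repair protein of muscle also called MG53, fell 1.25-fold (log2 -0.32, adjusted p = 0.0256). In control culture Trim72 rose between 1 to 12 h and 24 to 72 h, from 5.73 ± 0.21 (SD, n = 8) to 6.23 ± 0.19 (SD, n = 5, log2 0.50, adjusted p = 0.0174), while its late cytokine arrays averaged 5.90 ± 0.21 (SD, n = 10). It was the only member called in that control comparison, where 0.392% of all genes were higher and 0.808% lower, and that call was lost without control 60 h or control 72 h (up to 0.0696).

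All control arrays from 2 h on are replicate 1, at 6 to 12 h as well as late. At 6 to 12 h the differences within replicate 1 were 2.52 for Trim21 and 2.02 for Trim5, against 2.39 and 2.09 in all arrays. The replicate 2 cytokine array lay below the replicate 1 array at 5 of 5 late times for Trim21, Trim5, Trim6 and Trim26, by 0.59, 0.51, 0.64 and 0.16 on average, and at 3 of 5 times for Trim25. Within replicate 1 the late differences were 1.80 (Trim21, adjusted p = 0.000418), 1.52 (Trim5, 0.000216), 0.89 (Trim6, 0.00463), 0.33 (Trim25, 0.039) and 0.35 (Trim26, 0.0185), so that each was as large as or larger than in all arrays. Trim37 at -0.21 (0.1) and Trim72 at -0.25 (0.255) did not pass there, nor did Trim37 with arrays centred on their medians (0.0577). Late calls were also lost without any of 7 of 15 arrays for Trim6 (up to 0.287; control 24 or 36 h or any replicate 1 cytokine array) and 9 for Trim26 (up to 0.244; control 24, 36 or 48 h, any replicate 1 cytokine array, or cytokine 60 h replicate 2). They were lost without any of 9 for Trim37 (up to 0.21; control 24 to 60 h, cytokine replicate 1 at 24 to 60 h, or cytokine 72 h replicate 2) and 5 for Trim72 (up to 0.0954; control 24, 48 or 72 h, cytokine 48 h replicate 1 or 60 h replicate 2).

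**Figure D4:**
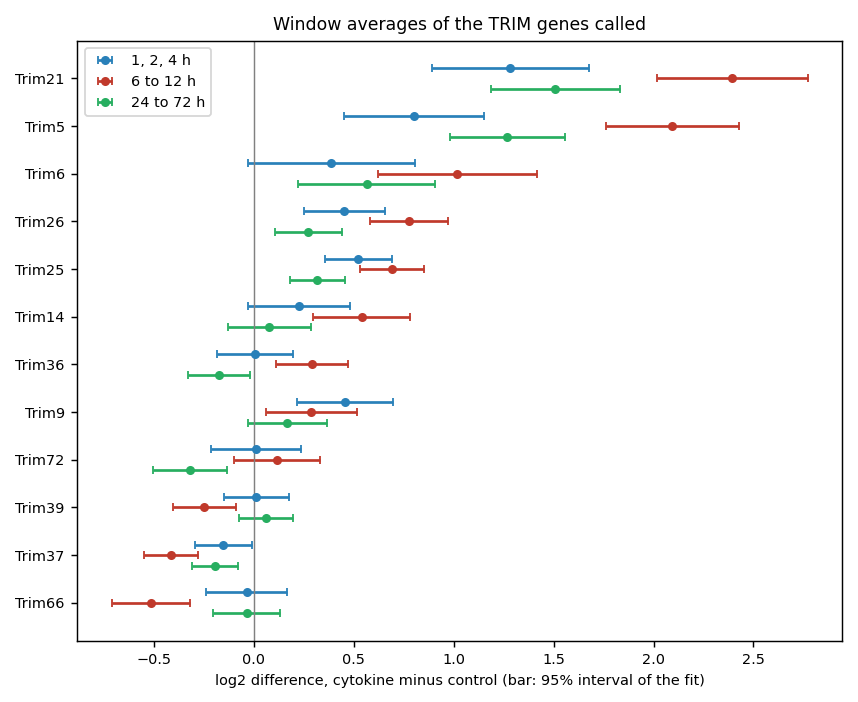
Log2 difference between cytokine and control (points) with the 95% interval of the fit (bars) for the 12 TRIM genes called in a window or at a single time, for 1, 2 and 4 h (blue), 6 to 12 h (red) and 24 to 72 h (green). Trim21 and Trim5 lie above 2 in the intermediate window, and the 3 genes that fell there lie between -0.25 and -0.51.

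The members that rose were mostly on the PRY-SPRY list, drawn from background annotation, with members that have a COS box listed apart whatever their end. Of its 21 measured members 6 rose and 1 fell (Trim39) at 6 to 12 h, with a median of 0.04. In the COS box subgroup 1 of 7 rose (Trim36, median 0.02), in the PHD finger and bromodomain subgroup 1 of 4 fell (Trim66, median -0.10), and in the NHL repeat subgroup 0 of 4 were called (median 0.01). Of the 12 with another or no known end, 1 fell (Trim37, median 0.02). Over all genes the median was -0.03, with 4.94% called higher and 4.11% lower. In the early and late windows 1.44% and 4.51% of all genes were called higher. Of 5 measured members on a list of known antiviral or interferon-inducible TRIM genes, 4 rose early, 5 at 6 to 12 h (median 0.78) and 4 late. The list was drawn up with earlier results of these data known, so these counts are a description and not a test. Trim6 and Trim36 rose at 6 to 12 h and are not on that list.

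The other 36 members were called in no window and at no single time. At 6 to 12 h their differences lay between -0.15 (Trim17) and 0.25 (Trim45), 0 had an unadjusted p under 0.05, and their 95% intervals together spanned -0.40 to 0.53. In the early window they lay between -0.34 (Trim71) and 0.29 (Trim50), with 4 at an unadjusted p under 0.05, and late between -0.32 (Trim59) and 0.22 (Trim50), with 5. Trim28, the corepressor of zinc finger proteins also called KAP1, stood at -0.09 (95% interval -0.25 to 0.06) at 6 to 12 h. Trim24 and Trim33, its relatives, stood at 0.04 and -0.11. Trim8, a regulator of cytokine signalling, stood at 0.17 (95% interval -0.06 to 0.40). Of the 48 members, 12 were among the dim genes that a filter on the mean left out.

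Neighbouring members are described at a place where both rose and at another where they differed, chosen after their values were seen. Other neighbours on chromosome 10 (Trim11 and Trim17, Trim47 and Trim65, Trim7 and Trim41) were called in no window. In the RefSeq gene table of GRCr8, Trim6 and Trim5 lie on chromosome 1 with Trim34 between them, and both rose. On chromosome 20, Trim31, Trim40 and Trim10 are neighbours near Trim26, which borders the RT1 genes of the major histocompatibility complex. At 6 to 12 h Trim26 rose, whereas Trim31 stood at 0.01 (adjusted p = 0.967), Trim40 at 0.09 (0.724) and Trim10 at -0.06 (0.849). Trim31, Trim40 and Trim10 were dim, with 34.7%, 32.6% and 29.6% of all genes at a lower mean, against 58% for Trim26. A change in such dim signals could be missed. Trim15, between Trim10 and Trim26, is not among the members. Trim39, also on chromosome 20, fell as given above. Probes of the closely related Trim5 group can cross-hybridise, which makes the values of Trim5 and Trim6 uncertain to that extent.

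Genes that work with TRIM ligases were read from lists drawn up with earlier results of these data known. For these lists the background of higher calls over all genes was 1.44% early, 4.94% at 6 to 12 h and 4.51% late. Of 9 family genes with other symbols, 1 rose at 6 to 12 h and 0 in the other windows. This was Pml, the scaffold of nuclear bodies, at 1.65-fold (log2 0.72, SE 0.11, adjusted p = 7.71e-05). Of 10 measured genes of ubiquitin and its E1 and E2 enzymes, 1 rose at 6 to 12 h (Ube2e2, an E2 enzyme, log2 0.38, adjusted p = 0.0151) and 0 in the early and late windows. That call was lost without control 12 h (0.157) and with replicate 1 arrays only (0.087).

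The enzymes of the ubiquitin-like protein ISG15 behaved otherwise, with 5 of 5 higher in each window and a median of 3.69 at 6 to 12 h. At 6 to 12 h Isg15 itself rose 12.9-fold (adjusted p = 1.92e-10), its E1 Uba7 3.05-fold, its E2 Ube2l6 5.31-fold, the ligase Herc6 16-fold and the ISG15 protease Usp18 22.2-fold.  Of 15 measured signalling proteins that TRIM ligases act on or with, 4 rose early, 5 at 6 to 12 h and 4 late. At 6 to 12 h these were the RNA sensor Ifih1 (log2 2.06), the transcription factor Irf7 (2.59), the antiviral protein Zc3hav1 (1.32), the sensor regulator Dhx58 (1.85) and the kinase Tbk1 (0.40, adjusted p = 0.0215). Without control 4 h, none of the early calls of either list was made, and with replicate 1 arrays only the early call of Ube2l6 alone held. With each of the 10 early arrays left out in turn, the early call of Isg15 was lost for 8 and those of Uba7 and Myd88 for 9. The early call of Ifih1 was lost for 7 arrays besides control 4 h. The late call of Dhx58 was lost without any of 6 of 15 arrays (up to 0.251). The call of Tbk1 was lost with replicate 1 arrays only (0.053) and without control 6 h (0.0622), control 10 h or cytokine 10 h (0.193 each). The 10 measured reference genes of the interferon and NF-kB response rose in each window, with a median of 3.95 at 6 to 12 h.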

How the data were processed

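Values of 40 arrays were used as deposited. Per the labels the arrays are Affymetrix Rat ST arrays of biotin-labelled total RNA. The authors' deposited table holds log2 signals (2.27 to 14.46, the scale read from the values), and how they were background-corrected, summarised or normalized is not given in the sources used here. Of 19239 probe sets, 16592 had a platform symbol. Of these, 3326 were updated through the RefSeq gene table of GRCr8, and the brightest of several probe sets was kept for 5 symbols. limma 3.58.1 (R 4.3.3, statmod 1.5.0 for array weights) fitted 1 coefficient per treatment and time to all 40 arrays (14 residual and 6.05 prior degrees of freedom), so a lone array is assumed to vary like groups of 2. Times of a window were weighted equally. Calls are at an adjusted p under 0.05 (Benjamini-Hochberg over all 16587 symbols, within each comparison and each of 13 single times). Means and SDs are over the arrays of a window. Alternatives were a replicate block, replicate 1 arrays only, quantile normalization, median centring, a filter on dim genes, trend and robust moderation, array weights and each array left out. For the windows, the replicate 1 fit held 1 coefficient per time and 1 cytokine effect per window. Changes of the effect within a window therefore count as its residual spread. The fit was tested on simulated data. Named are members called in a window or at a single time, members of the antiviral list, the range ends of the rest, and up to 4 called genes per other list by smallest p. Uba7, Tbk1 and the uncalled members named as neighbours, chromatin relatives or cytokine regulators fall outside that rule and were chosen after their values were seen. A further promoter motif that was searched is not reported here. Members, lists and tests were chosen with earlier results of these data known.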

Additional observations from a re-analysis of the deposited data

Results flagged for a closer look

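The following differences between time windows passed limma's test of the difference itself. The average cytokine effect on Trim5 was larger at 6 to 12 h than over 1, 2 and 4 h by 1.29 (adjusted p = 0.00368) and that on Trim21 by 1.11 (0.0357). At 4 h alone Trim5 (2.11) and Trim21 (2.75) already stood within their range of single times at 6 to 12 h. From 6 to 12 h to the late times the effect changed by -0.83 for Trim5 (0.0416), by -0.50 for Trim26 (0.0307), by -0.47 for Trim36 (0.0341) and by 0.48 for Trim66 (0.0426). The effects on Trim36 and Trim66 at 6 to 12 h had opposite signs (0.29 and -0.51). No group holds more than 2 arrays, so single arrays were not tested for standing apart from their group.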

How the results depend on the processing

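No difference of a named TRIM gene that passed the threshold changed sign under the alternatives run, while small differences that did not pass it changed sign in some. Of 285 window values of the 12 named members under settings other than leaving out an array, 264 kept their direction and side of the threshold, 11 lost the call, 3 gained it and 7 changed sign without a call. Those were, in the early window, Trim36 (-0.001 with the replicate block and -0.099 with replicate 1 arrays only), Trim39 (-0.011 and -0.028 in the same order), Trim66 (0.012 with replicate 1 arrays only) and Trim72 (-0.027), and late Trim66 (0.034). Trim6 in control culture turned to -0.002 with the replicate block and -0.013 with quantile normalization. The cause was not tested. With 1 array left out, uncalled values crossed 0 early for Trim36 (-0.069 to 0.104), Trim39 (-0.064 to 0.059), Trim66 (-0.084 to 0.040) and Trim72 (-0.046 to 0.074), at 6 to 12 h for Trim72 (-0.023 to 0.179) and late for Trim66 (-0.129 to 0.028). They also did so in intermediate minus early for Trim72 (-0.032 to 0.169) and Trim9 (-0.312 to 0.061), in late minus intermediate for Trim9 (-0.309 to 0.023), and in control culture for Trim5 (-0.002 to 0.087), Trim6 (-0.038 to 0.092) and Trim39 (-0.077 to 0.020). Ifih1 in the early window ranged from -0.046 (without control 4 h) to 0.846 (without control 2 h) with 1 array left out. With replicate 1 arrays only, members called early were 0 higher and late 1 lower, which was neither Trim37 nor Trim72. Between windows they were 0 higher (intermediate minus early), and 0 higher and 0 lower (late minus intermediate). With the replicate block, late calls were 4 lower (adding Trim2 at -0.22 and Trim59 at -0.40), late minus intermediate 5 lower, and single times 2 lower. The paired samples share only a number: differences between replicates 1 and 2 correlated between groups at -0.17 to 0.43 (median 0.21, 91 pairs of groups). With median centring 1 member was lower late, and with array weights 5 were lower in late minus intermediate. Leaving out 1 array gave 0 to 4 higher and 0 to 2 lower early, 5 to 7 and 2 to 3 at 6 to 12 h, and 3 to 5 and 0 to 3 late. It gave 0 to 2 higher for intermediate minus early, 0 to 1 higher and 0 to 5 lower for late minus intermediate, 0 to 1 higher in control culture, and 4 to 6 higher and 0 to 2 lower at single times. The early lower calls, Trim71 (-0.45) and Trim29 (-0.37), came without control 1 h replicate 2. The number of arrays, with 1 control at 11 of 13 times, limits what single times can show.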

Other observations

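The RefSeq gene table names 3 further probe sets of the array as numbered Trim genes that the platform does not, read in a fit on all 19239 probe sets that was added after seeing the data. Trim30d, a member of the mouse Trim30 group, lies near Trim5 on chromosome 1 with Trim30c between them. Its control arrays lay between 3.50 and 3.90. Its cytokine arrays lay between 4.38 and 5.05 at 6 to 12 h, apart from 3.89 at 12 h in replicate 2. It rose 1.91-fold in that window (log2 0.94, SE 0.17, limma adjusted p = 0.000726), with 0.09 early (adjusted p = 0.932) and 0.13 late (0.685). Late, its replicate 1 cytokine arrays lay between 4.023 and 4.32, above all controls, and its replicate 2 arrays between 3.579 and 3.985. Trim43a stood at -0.02 and Trim75l-ps1 at 0.00 at 6 to 12 h, neither called. These signals are among the low values of the table, and related sequences may share probes.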
